A study of Mus musculus with 30 samples.

Results

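The genes Ppara, Pparg, Cpt1a, Pdk4, Angptl4, Plin2, Acaa2 and Acadm were chosen by symbol as a set for signalling by peroxisome proliferator-activated receptors (PPARs), ketone body formation and fat oxidation in the colon. They are 8 of the 46078 genes in the count table, each symbol matched 1 gene, and all 8 passed the filter on low counts, which kept 16261 genes. The data were RNA-seq of the scraped epithelial layer of the colon from wild-type C57BL/6J mice of both sexes, 5 to 10 weeks old at the start, in 30 libraries of 6 groups with 5 mice per group. Treated mice received 1 injection of azoxymethane (AOM, a colon carcinogen) at 10 mg/kg and then 3 cycles of 2.5% dextran sodium sulfate (DSS, an irritant that causes colitis) in the drinking water, and were killed at 9 weeks or at 15 weeks. Vehicle mice received a saline injection and were killed at 9 weeks. The 10 vehicle mice served as the control for both times, so a difference between 15 weeks and vehicle holds treatment and time, which cannot be told apart. Library totals ran from 9265804 to 30806392 counts. All 14 epithelial markers were detected in every library, Epcam with 13248 to 54591 counts, and markers of other cells were present too. As in any bulk library, fewer cells of a type and less RNA per cell cannot be told apart.

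PPARs are nuclear receptors that are switched on by fatty acids and their derivatives, pair with a retinoid X receptor (RXR) and bind a direct repeat of a short half-site in the DNA. PPAR-alpha, made from Ppara, is known for driving the burning of fatty acids, and PPAR-gamma, made from Pparg, for driving fat storage in adipocytes and for its high level in the surface epithelium of the colon. In the colon the main fuel is butyrate from bacterial fermentation, a short fatty acid that colonocytes oxidise in mitochondria and in part turn into ketone bodies. Among the 8 genes, Ppara and Pparg are the receptors and the other 6 are textbook targets or enzymes of the pathway. No enzyme of ketone body formation is among them, so ketogenesis was read from a separate list of genes. On GRCm38, by the positions the authors deposited with their expression values, Ppara (ENSMUSG00000022383) spans chr15:85734983-85802819 on the + strand, Pparg (ENSMUSG00000000440) chr6:115361221-115490401 on the + strand and Pdk4 (ENSMUSG00000019577) chr6:5483351-5496309 on the - strand.

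RefSeq promoters on GRCm38.p6 were taken from 250 bases before the start of transcription to 50 bases after it. They were searched for 6 of the 8 genes, with 3 starts for Pparg and 8 promoters in all. Angptl4 and Acaa2 were not part of the search, so nothing is said here on matches in their promoters. The promoters of the receptors, of Cpt1a and Pdk4, whose levels were correlated with theirs within groups, and of Plin2, whose level was not, are shown 5′ to 3′ to 20 bases past the start, with capitals for matches to the nuclear receptor half-site AGGTCA (or its complement TGACCT) and to the E-box CACGTG, the element bound by the circadian clock factors.
Ppara, chr15:85735526-85735795, + strand: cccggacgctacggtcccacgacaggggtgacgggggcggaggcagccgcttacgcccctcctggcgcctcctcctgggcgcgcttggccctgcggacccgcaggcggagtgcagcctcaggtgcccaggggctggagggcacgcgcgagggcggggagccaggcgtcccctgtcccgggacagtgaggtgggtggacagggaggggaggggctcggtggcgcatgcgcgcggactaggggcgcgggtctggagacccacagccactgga
Pparg, first start, chr6:115360894-115361163, + strand: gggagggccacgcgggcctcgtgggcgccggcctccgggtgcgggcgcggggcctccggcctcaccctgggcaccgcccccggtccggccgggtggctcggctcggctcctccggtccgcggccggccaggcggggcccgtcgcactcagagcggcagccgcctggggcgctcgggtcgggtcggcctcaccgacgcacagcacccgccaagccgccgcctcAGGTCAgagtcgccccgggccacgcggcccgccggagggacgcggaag
Cpt1a, chr19:3323051-3323320, + strand: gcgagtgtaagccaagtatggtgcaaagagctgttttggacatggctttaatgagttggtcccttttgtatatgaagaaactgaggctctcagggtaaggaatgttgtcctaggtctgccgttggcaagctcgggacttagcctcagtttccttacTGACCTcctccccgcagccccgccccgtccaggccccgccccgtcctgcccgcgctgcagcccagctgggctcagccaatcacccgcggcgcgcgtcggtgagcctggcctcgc
Pdk4, chr6:5496259-5496528, - strand: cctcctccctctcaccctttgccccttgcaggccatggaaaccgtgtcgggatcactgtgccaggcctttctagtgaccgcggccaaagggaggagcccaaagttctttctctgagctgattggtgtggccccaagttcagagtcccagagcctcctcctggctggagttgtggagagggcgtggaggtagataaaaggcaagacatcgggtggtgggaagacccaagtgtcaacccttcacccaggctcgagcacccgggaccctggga
Plin2, chr4:86670040-86670309, - strand: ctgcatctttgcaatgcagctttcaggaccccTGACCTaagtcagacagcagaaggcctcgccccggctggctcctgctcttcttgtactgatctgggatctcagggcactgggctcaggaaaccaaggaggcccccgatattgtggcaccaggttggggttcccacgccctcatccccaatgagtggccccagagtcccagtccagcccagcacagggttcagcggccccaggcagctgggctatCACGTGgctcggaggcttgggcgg

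The PPAR/RXR direct repeat AGGTCANAGGTCA, searched on both strands, was in 0 of the 8 promoters and in 0.0396% of the 32851 promoters of the same length in the table. The half-site, which is also contained in the direct repeat, was in 5 of the 8 promoters and in 16.3% of all promoters. It lay at position -28 of the first and -9 of the second Pparg promoter, counted back from the start, at -94 in Cpt1a, at -218 in Plin2 and at -249 in Acadm. The E-box was in 1 promoter, that of Plin2, where it began at position -4, and in 7.15% of all promoters. A match is a run of letters and not a shown binding site, and a promoter without a match may be bound elsewhere.

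Levels differed widely between the genes and were set in order per transcript length, in TPM (transcript levels scaled to 1 fixed total per library) within each library. Cpt1a, the enzyme that loads long fatty acids onto carnitine for entry into mitochondria, had the highest median of the 30 libraries at 47.3 TPM. Acadm, the medium-chain acyl-CoA dehydrogenase, had 47.1 TPM, Plin2, the coat protein of lipid droplets, 45.8 TPM, and Acaa2, the thiolase of the last step of beta-oxidation, 44.3 TPM. These 4 genes did not separate. Cpt1a was above Acadm in 21 of 30 libraries, Acadm above Plin2 in 12 and Plin2 above Acaa2 in 17.

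Pparg followed at 32.4 TPM, with Acaa2 above it in 29 of 30 libraries. A gap then led to Ppara at 1.86 TPM, which was below Pparg in every one of the 30 libraries. Pdk4, the kinase that switches off pyruvate dehydrogenase and so spares glucose, had 1.503 TPM and was below Ppara in 16 of 30 libraries, so their order was not settled. Angptl4, a secreted inhibitor of lipoprotein lipase, was lowest at 0.276 TPM and was below Pdk4 in 29 libraries. From the counts, as CPM (read counts scaled to a library of fixed size) per kilobase of merged exons, Acaa2 led with 77.8 and Cpt1a followed with 45.6. Pdk4 at 2.75 was then above Ppara at 2.48, and Angptl4 was again lowest at 0.346.

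Between libraries the genes were compared in CPM with TMM scaling, and TPM entered only in alternatives. The mitochondrial transcript mt-Nd4l took from 391988 to 581118 TPM of a library, and the scale of TPM against CPM ran from 0.323 to 1.46 relative to the median over libraries. It ran from 0.470 to 1.46 in vehicle libraries, from 0.685 to 1.44 at 9 weeks and from 0.323 to 1.39 at 15 weeks. The fits with limma on TPM, given below as an alternative, made no correction for this scale. The spread over the 30 libraries set the genes apart. Acadm varied 1.73-fold from its lowest to its highest library in CPM, Cpt1a 1.99-fold, Plin2 2.73-fold, Acaa2 3.05-fold and Pparg 4.79-fold. Ppara varied 11.1-fold, Angptl4 67.3-fold and Pdk4 207-fold, and the lowest libraries of the last 2 genes held 5 and 7 counts.

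**Figure D1:**
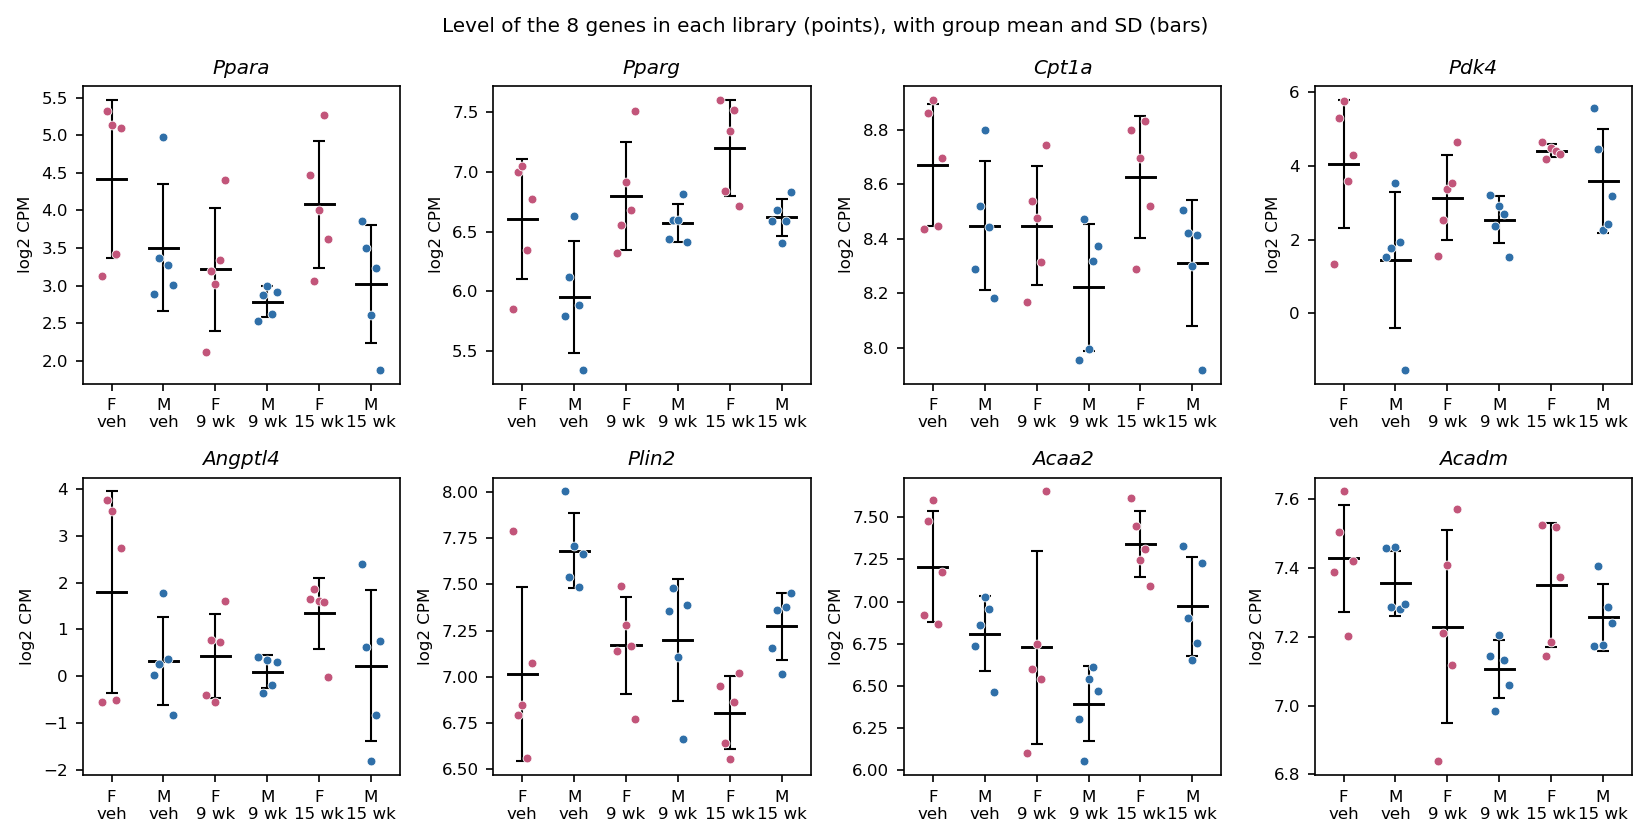
Level of each gene in log2 CPM (y axis, scaled per panel) in the 30 libraries by group (F female, M male, veh vehicle, wk weeks of AOM/DSS). Points are libraries and bars are the mean ± SD of 5 libraries. Pparg lies above the vehicle median of the pooled sexes in all 10 libraries at 15 weeks, and Pdk4 and Angptl4 spread over several log2 units within the vehicle groups.

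At 9 weeks of AOM/DSS, Ppara and Acaa2 were called lower than in vehicle mice with the sexes averaged, and no member was called higher. A gene was called at an adjusted p under 0.05 in edgeR with a log2 fold change beyond 0.4 in either direction and a mean of at least 1 FPKM on 1 side. This left 2 of 8 members lower, where 2.78% of the 16261 genes were called lower and 5.51% higher. The log2 fold changes of 7 of the 8 members were below 0, with a median of -0.29 against -0.02 over all genes tested. At an unadjusted p under 0.05 there were 6 members. Such counts are given here and below without the share of all genes at that level, except for the interactions.

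Ppara had the larger change of the called members. In female vehicle mice it had 8.63, 40.03, 34.9, 10.6 and 34.1 CPM, and in male vehicle mice 7.35, 10.3, 31.4, 9.64 and 7.99 CPM. At 9 weeks the females had 4.27, 9.04, 8.04, 10.1 and 21.2 CPM and the males 5.67, 7.29, 7.89, 6.08 and 7.47 CPM. The vehicle libraries split into 4 above 30 CPM and 6 near 10 CPM or below, and at 9 weeks 1 of 10 libraries was above the vehicle median and 4 were below the lowest vehicle library. The groups overlapped. Its log2 fold change was -1.12 ± 0.34 (SE, 10 against 10 libraries, adjusted p = 0.023 in edgeR). It was -1.29 ± 0.48 in females (adjusted p = 0.14) and -0.95 ± 0.48 in males (adjusted p = 0.22), neither past the threshold.

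The call on Ppara was lost without male vehicle replicate 3, at 31.4 CPM against a group median of 9.64 CPM, where the log2 fold change was -0.82 (adjusted p = 0.083). It was kept in the other 19 fits that left out 1 library, and lost with limma on TPM (-0.72, adjusted p = 0.25), with the clock genes as a covariate (-1.09, adjusted p = 0.053) and with replicate numbers blocked (-1.07, adjusted p = 0.05004). Markers of other cells moved at the same time: 4 of 9 macrophage markers rose at 9 weeks, with a median log2 fold change of 1.06 and none of the 9 at 0 counts in any library. The summed macrophage level, the mean log2 CPM of the markers, ran from 0.594 to 3.84 in vehicle libraries and from 1.85 to 3.64 at 9 weeks. With the mean level of 14 mesenchyme markers as a covariate, Ppara had a log2 fold change of -0.71 (adjusted p = 0.10), and the part of the macrophages in its change was not tested.

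Acaa2 had a smaller change. Its vehicle libraries had 120.9, 178.3, 195, 116 and 144.3 CPM in females and 107, 116, 131, 124 and 88.2 CPM in males. At 9 weeks it had 68.4, 96.9, 107, 92.9 and 202 CPM in females and 78.7, 66.2, 93.1, 97.6 and 88.5 CPM in males. The highest library of all 20 was female replicate 5 at 9 weeks, and 8 of the other 9 libraries at 9 weeks were below 100 CPM. Its log2 fold change was -0.41 ± 0.14 (adjusted p = 0.0496 in edgeR), at the edge of both thresholds. The call was lost in 15 of the 20 fits that left out 1 library, with adjusted p-values up to 0.11, and was kept without female vehicle replicate 1 or 4, male vehicle replicate 5, or, at 9 weeks, female replicate 5 or male replicate 4. It was also lost under RLE size factors (adjusted p = 0.060), with no filter on low counts (0.074), in the compared libraries alone (0.10), with replicate numbers blocked (0.060) and with limma on TPM (-0.12, adjusted p = 0.73). As covariates, the mesenchyme markers (-0.33, adjusted p = 0.10), the clock genes (-0.45, adjusted p = 0.055) and the distal colon markers (-0.33, adjusted p = 0.016, under the fold minimum) removed it too. Without female replicate 5 at 9 weeks, the log2 fold change was -0.57 with the sexes averaged (adjusted p = 0.00079), and Acaa2 was called in females at -0.73 (adjusted p = 0.0071), as was Ppara at -1.71 (adjusted p = 0.032).

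Acadm, which carries out the first step of the cycle that Acaa2 closes, had 168.5 ± 15.0 CPM (SD, n = 10) in vehicle mice and 145 ± 21.5 CPM at 9 weeks. Its log2 fold change of -0.22 ± 0.08 passed on its adjusted p of 0.046 in edgeR but was smaller than the fold required for a call. By p alone 6.32% of all genes were lower. Cpt1a had 382 ± 65.7 CPM in vehicle mice and 327 ± 54.7 CPM at 9 weeks, with a log2 fold change of -0.22 ± 0.10 (adjusted p = 0.13). The libraries of both conditions overlapped for either enzyme, with 6 of 10 for Acadm and 3 of 10 for Cpt1a below the lowest vehicle library.

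Angptl4 had the largest estimate and a wide error. Its log2 fold change at 9 weeks was -1.32 ± 0.52 (adjusted p = 0.083 in edgeR). In female vehicle mice it had 0.599, 13.5, 11.5, 0.618 and 6.61 CPM, so 3 libraries were high and replicates 1 and 4 were low. The 5 females at 9 weeks had 0.677, 1.64, 0.597, 1.57 and 2.96 CPM. By sex it was -2.15 ± 0.74 in females (adjusted p = 0.10, and 0.037 by DESeq2) and -0.49 ± 0.73 in males (adjusted p = 0.73). Without female vehicle replicate 1 or replicate 4, the difference with the sexes averaged was called at -1.47 in each case (adjusted p = 0.039 and 0.043). In these 2 fits the vehicle mean passed the FPKM minimum as well.

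Pdk4 at 9 weeks had a log2 fold change of -0.35 ± 0.50 (adjusted p = 0.70), and Plin2 one of -0.18 ± 0.13 (adjusted p = 0.38). The estimates for Pdk4 had opposite signs by sex, -1.21 ± 0.70 in females (adjusted p = 0.40) and 0.51 ± 0.71 in males (adjusted p = 0.71), and the interaction, males minus females, was 1.72 ± 0.998 (adjusted p = 0.72). Pparg was the member with an estimate above 0, at 0.38 ± 0.16 (adjusted p = 0.12). All 10 of its libraries at 9 weeks were above 75.4 CPM, the vehicle median with the sexes pooled. Females had medians of 109 CPM in vehicle mice and 102.5 CPM at 9 weeks, and males 59.1 and 96.7 CPM. By sex Pparg was at 0.19 ± 0.23 in females (adjusted p = 0.76 in edgeR) and 0.56 ± 0.23 in males (adjusted p = 0.12). With the sexes averaged and the mesenchyme or the distal colon markers as a covariate, Pparg was called higher. The values were 0.54 (adjusted p = 0.0084) and 0.48 (adjusted p = 0.014), and without male vehicle replicate 3 it was called at 0.48 (adjusted p = 0.041).

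At 15 weeks Pparg was the 1 member called against vehicle, and it was higher. Of all genes tested 3.46% were called higher and 3.89% lower. The members' median log2 fold change was -0.09 against -0.03 over all genes, and 2 members had an unadjusted p under 0.05. The 9-week and 15-week comparisons share the 10 vehicle libraries, so their values are set side by side and not counted as separate support.

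Pparg had 57.9, 128, 132, 81.3 and 109 CPM in female vehicle mice and 55.4, 69.4, 98.7, 59.1 and 40.5 CPM in male vehicle mice. At 15 weeks it had 194, 114.1, 161.6, 183 and 105 CPM in females and 96.2, 102, 84.9, 96.2 and 113.6 CPM in males. All 10 libraries were above the vehicle median and 3 were above the highest vehicle library, all of them female. Between the conditions the log2 fold change was 0.59 ± 0.16 (adjusted p = 0.016 in edgeR). It was 0.57 ± 0.23 in females (adjusted p = 0.38) and 0.61 ± 0.23 in males (adjusted p = 0.072, and 0.046 by DESeq2), so the estimates of the sexes lay within 1 error of each other.

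The call on Pparg was lost with limma on TPM (0.32, adjusted p = 0.41). It held in each of the 20 fits that left out 1 library, with log2 fold changes from 0.52 to 0.69 and adjusted p-values from 0.0064 to 0.033. Pparg is also a gene of fat cells, so adipocyte markers were read beside it. By edgeR 0 of the 5 tested markers were called at 15 weeks, with 4 at an unadjusted p under 0.05. Their median log2 fold change was -1.76, and 4 of the 5 were below 0. Adipoq was at 0 counts in 9 of the 30 libraries and had at most 58 counts. The mesenchyme markers were lower as well, 5 of 14 called with a median of -1.19, and with their level as a covariate Pparg was still called at 0.44 (adjusted p = 0.039).

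Plin2 at 15 weeks had a log2 fold change of -0.34 ± 0.13 and was not called (adjusted p = 0.064). All 10 libraries at 15 weeks were below 183 CPM, the vehicle median with the sexes pooled. The mean was 134 ± 27.8 CPM against 171 ± 54.5 CPM in vehicle mice (SD, n = 10). Females had medians of 114.9 CPM in vehicle mice and 116.3 CPM at 15 weeks, and males 203 and 164 CPM. By sex Plin2 was at -0.26 ± 0.18 in females (adjusted p = 0.60 in edgeR) and -0.41 ± 0.18 in males (adjusted p = 0.12). Pdk4 had 19.5 ± 12.4 CPM against 14.9 ± 18.1 CPM, a log2 fold change of 0.88 ± 0.49 (adjusted p = 0.21). Ppara was at -0.49 ± 0.34 (adjusted p = 0.31), Angptl4 at -0.49 ± 0.51 (adjusted p = 0.52), Acaa2 at 0.14 ± 0.14 (adjusted p = 0.50), and Cpt1a and Acadm both at -0.09 (adjusted p = 0.55 and 0.42).

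Angptl4 at 15 weeks was at -1.29 ± 0.72 in females (adjusted p = 0.51) and at 0.32 ± 0.73 in males (adjusted p = 0.81), with an interaction of 1.61 ± 1.02 (adjusted p = 0.77). Pdk4 at 15 weeks had opposite signs by sex as well. In females the 5 libraries were close together at 24.9, 18.1, 22.5, 20.9 and 20.03 CPM, inside the range of 2.43 to 54.0 CPM of female vehicle mice. In males they were at 47.7, 21.9, 4.67, 5.30 and 9.04 CPM, with 2 libraries above and 3 inside the range of 0.261 to 11.6 CPM of male vehicle mice. Against vehicle the log2 fold change was -0.26 ± 0.69 in females (adjusted p = 0.90) and 2.03 ± 0.73 in males (adjusted p = 0.058 in edgeR and 0.031 in DESeq2). The interaction, males minus females, was 2.29 ± 0.99 with an adjusted p of 0.58. Without male vehicle replicate 3 the male change was called at 2.81 (adjusted p = 0.020), and without 15-week male replicate 3 or 4 at 2.28 (adjusted p = 0.041) or 2.27 (adjusted p = 0.040).

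**Figure D2:**
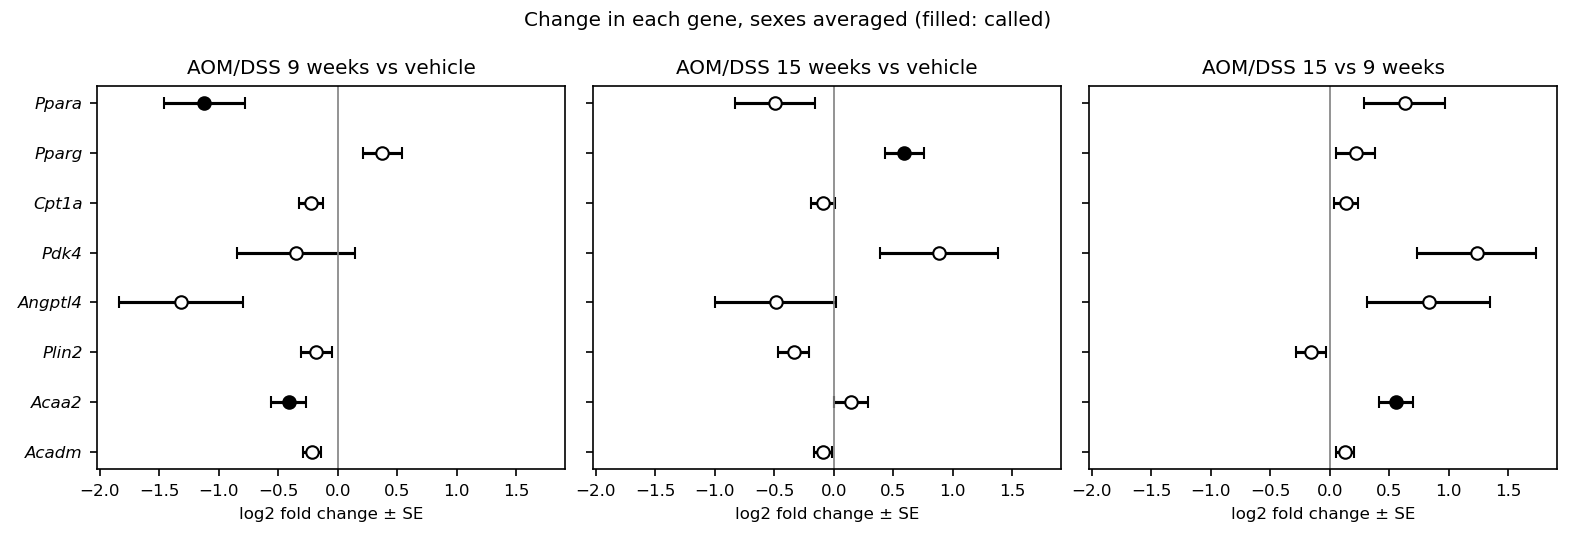
Log2 fold change ± SE (x axis) of each gene (y axis) with the sexes averaged, in 9 weeks against vehicle, 15 weeks against vehicle and 15 against 9 weeks. Filled points were called, which holds for Ppara and Acaa2 at 9 weeks, Pparg at 15 weeks and Acaa2 between the times.

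From 9 to 15 weeks Acaa2 was called higher, the 1 member called in a comparison where 0.418% of genes were called higher and 1.91% lower. It had 99.1 ± 38.4 CPM at 9 weeks and 145.6 ± 29.9 CPM at 15 weeks (SD, n = 10), and all 10 libraries at 15 weeks were above the 9-week median of 93.0 CPM. The log2 fold change was 0.56 ± 0.14 (adjusted p = 0.031 in edgeR). The call was lost in 8 of the 20 fits that left out 1 library, with adjusted p-values up to 0.069. These left out female replicate 1, 2 or 4 or male replicate 1 or 2 at 9 weeks, or female replicate 1 or 2 or male replicate 1 at 15 weeks. It was also lost in the fits with the distal colon markers (0.31, adjusted p = 0.24) or the mesenchyme markers (0.39, adjusted p = 0.42) as a covariate, and with limma on TPM the sign turned (-0.041, adjusted p = 0.87). As mean log2 CPM, the level of the distal colon markers ran from 2.32 to 5.53 at 9 weeks with a median of 5.07, and from 2.48 to 5.20 at 15 weeks with a median of 3.599. In females the medians were 4.97 and 2.91. The part of this in the change of Acaa2 was not tested beyond that covariate.

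The other members were not called between the times, and 7 of 8 estimates were above 0, with a median of 0.39 against -0.02 over all genes. Pdk4 was at 1.23 ± 0.50 (adjusted p = 0.13), Angptl4 at 0.83 ± 0.52 (adjusted p = 0.33) and Ppara at 0.63 ± 0.34 (adjusted p = 0.26). Pdk4 was called at 1.52 (adjusted p = 0.041) once female replicate 5 at 9 weeks was left out. Pparg was at 0.22 ± 0.16 (adjusted p = 0.42), Cpt1a and Acadm at 0.13 (adjusted p = 0.42 and 0.29), and Plin2 at -0.16 ± 0.13 (adjusted p = 0.45). With limma on TPM, not corrected for the scale of TPM given above, Plin2 was called lower at -0.81 (adjusted p = 0.027).

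No member was called in females or males alone against vehicle in edgeR. The share of all genes called was 2.90% in females and 7.31% in males at 9 weeks, and 0.0984% and 8.92% at 15 weeks. At an unadjusted p under 0.05 there were 2 and 3 members at 9 weeks and 1 and 3 at 15 weeks. DESeq2 called 1 member in females at 9 weeks, 2 in males at 15 weeks and 0 in the other pair of comparisons. The shares of all genes given here are from edgeR, and none is given for DESeq2.

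The sexes were then compared within each condition, the question the study was built around. In edgeR no member was called between males and females in vehicle mice, at 9 weeks or at 15 weeks, where 0.178%, 0.0492% and 0.184% of all genes were called. At an unadjusted p under 0.05 there were 4, 0 and 4 members, and DESeq2 called 3 in vehicle mice and 0 at either later time. The shares of all genes are those called in edgeR, and none is given for DESeq2. In each of the 3 comparisons 7 of 8 members had estimates below 0, that is lower in males, and Plin2 was the member above 0 each time. The medians were -0.53, -0.35 and -0.34, against 0.01, -0.01 and 0.00 over all genes.

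In vehicle mice the sex difference was widest for Pdk4. Females had 2.43, 39.5, 54.0, 12.1 and 19.6 CPM and males 2.80, 3.30, 11.6, 3.73 and 0.261 CPM. Only female replicate 1 was at the level of most males. The log2 fold change of males over females was -2.56 ± 0.74 (adjusted p = 0.073 in edgeR and 0.020 in DESeq2). Angptl4 was at -2.21 ± 0.74 (adjusted p = 0.11 and 0.038), Ppara at -0.94 ± 0.48 (adjusted p = 0.29 in edgeR) and Pparg at -0.65 ± 0.23 (adjusted p = 0.13 in edgeR). Markers of other cells differed in the same libraries. Of 8 smooth muscle markers 7 were called higher in males, with a median log2 fold change of 6.20. Male vehicle replicate 1 stood out, with a mean log2 CPM of these markers of 8.74. The other male vehicle libraries ran from 1.56 to 3.35 and the female ones from -1.52 to 2.05. Of 14 mesenchyme markers 0 were called by edgeR, but all 14 were above 0 and had an unadjusted p under 0.05, with a median of 2.51. With the mesenchyme markers as a covariate, Ppara was at 0.18 between the sexes (adjusted p = 1.0), and the part of the smooth muscle in these differences was not tested.

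Plin2 ran the other way in vehicle mice. Females had 221, 111, 114.9, 94.4 and 135 CPM and males 257, 186, 209, 179 and 203 CPM, so that female replicate 1 lay among the males and the other 4 females lay below every male. Males over females, the log2 fold change was 0.61 ± 0.18 (adjusted p = 0.075 in edgeR and 0.030 in DESeq2). At 9 weeks females and males had 145.9 ± 25.6 and 150 ± 31.0 CPM (SD, n = 5). Plin2 was at -0.47 ± 0.18 in males at 9 weeks against vehicle (adjusted p = 0.097) and at 0.11 ± 0.18 in females (adjusted p = 0.83), and the interaction was -0.58 ± 0.25 (adjusted p = 0.64).

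Several calls turned on female vehicle replicate 1. Without it, 4 members were called between the sexes in vehicle mice: Pdk4 at -2.86 (adjusted p = 0.012), Angptl4 at -2.50 (adjusted p = 0.025), Pparg at -0.80 (adjusted p = 0.024) and Plin2 at 0.87 (adjusted p = 0.0037). The share of all genes called without this library is not given here. This library had the highest distal colon level of the 30, 5.74 against 2.64 to 5.07 in the other female vehicle libraries. Its proximal colon level was 3.53 against 4.62 to 5.74, and its mesenchyme level 4.02 against 1.10 to 2.09. With the distal colon markers as a covariate and all libraries kept, Plin2 was called between the sexes in vehicle mice at 0.64 (adjusted p = 0.024 in edgeR). Beyond the fits with the distal colon or mesenchyme markers as a covariate, the part of these levels in the sex difference was not tested. Without male vehicle replicate 3, Pdk4 was called at -3.34 (adjusted p = 0.033) and Pparg at -0.86 (adjusted p = 0.040), and without male vehicle replicate 4 Plin2 was called at 0.66 (adjusted p = 0.047). No gene at all was called in the interaction of sex and treatment at 9 weeks or at 15 weeks in edgeR, where 1205 and 1245 genes had an unadjusted p under 0.05, 1 member each among them, and DESeq2 called 0 of the 8 members in either.

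Within the groups most pairs of members, those with Plin2 apart, went up and down together from mouse to mouse. Correlations were taken over the 30 libraries after each gene's log2 CPM was centred on its group mean, so that no difference between groups entered, with permutation p-values from 100000 shuffles within groups, adjusted over the 28 pairs. Of these pairs 20 had an adjusted p under 0.05 for Pearson's r, all with r above 0. The other 8 were the 7 pairs with Plin2, with r from -0.40 to 0.06, and Angptl4 with Acadm. All pairs share the libraries, their depth, their scaling and their mix of cells. The share of correlated pairs among other genes was not counted, so the 20 pairs are not shown to be particular to this set.

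The closest pair was Ppara with Cpt1a, a receptor and its classic target, at r = 0.84 (rho = 0.85, adjusted permutation p = 0.00014), and r was 0.80 without the 2 libraries farthest from the median of Ppara. Pdk4 with Angptl4, a pair of targets that rise on fasting, had r = 0.78 (rho = 0.71, adjusted permutation p = 0.00019) and 0.75 without 2 libraries. The receptors Ppara and Pparg had r = 0.77 (rho = 0.73, adjusted permutation p = 0.00032) and 0.68 without 2 libraries. Pparg with Pdk4 had r = 0.76 (rho = 0.68, adjusted permutation p = 0.00017) and Pparg with Acaa2 r = 0.75 (rho = 0.75, adjusted permutation p = 0.00014).

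**Figure D3:**
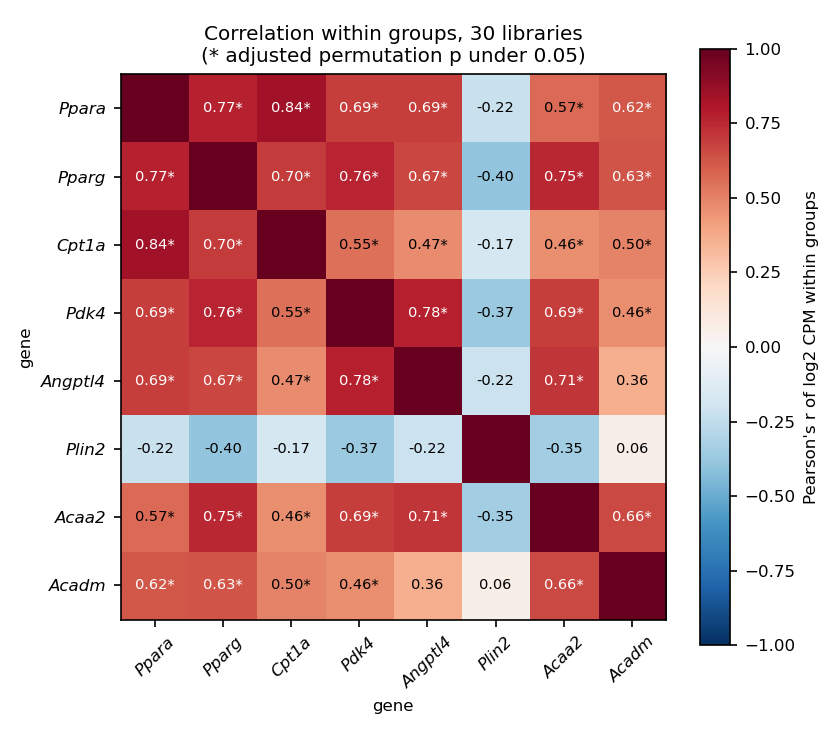
Pearson's r between each pair of genes in log2 CPM centred on the group means, over 30 libraries (colour scale from -1 to 1, stars for an adjusted permutation p under 0.05). The 20 starred pairs have r from 0.46 to 0.84, and the row of Plin2 has no star.

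The same centred levels were set against the mean level of marker lists, with p-values adjusted over 56 pairs of a member and a score. The lists mark positions along the colon and cell types. Pdk4 went with the proximal colon markers at r = 0.80 (rho = 0.74, adjusted permutation p = 0.0022), and r was 0.72 without the 2 libraries farthest from the median of the score. Acaa2 went against the distal colon markers at r = -0.77 (rho = -0.76, adjusted permutation p = 0.0022) and -0.64 without 2 libraries. Pparg had r = 0.70 with the proximal markers (rho = 0.58, adjusted permutation p = 0.0029), and Angptl4 had r = 0.65 with them (rho = 0.69, adjusted permutation p = 0.0034).

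Cpt1a went against the macrophage markers at r = -0.70 (rho = -0.65, adjusted permutation p = 0.0022), as did Pparg at r = -0.68 and Ppara at r = -0.66, both with an adjusted permutation p of 0.0056. Plin2 had the opposite sign there, at r = 0.48 (rho = 0.43, adjusted permutation p = 0.032), but r was 0.27 without 2 libraries, so this relation rests on them. The mesenchyme markers gave the same signs. Cpt1a had r = -0.62, Pparg -0.60 and Ppara -0.58 with them (adjusted permutation p = 0.0062, 0.011 and 0.013). Plin2 had r = 0.53 with the mesenchyme markers (adjusted permutation p = 0.014) and 0.33 without 2 libraries. The remaining members had an adjusted p above 0.05 with the mesenchyme markers. With the clock score, the mean level of 9 clock genes that peak by day minus that of 6 that peak by night, Plin2 had r = 0.53 (rho = 0.49, adjusted permutation p = 0.013). Pdk4 had r = -0.28 with it (adjusted permutation p = 0.23) and rho = -0.42 (adjusted permutation p = 0.044), and the other 6 members had an adjusted p above 0.05 by either measure. Epithelial markers went with Acaa2 at r = 0.64, with Pdk4 at r = 0.60, with Pparg at r = 0.55 and with Angptl4 at r = 0.53. The adjusted permutation p-values were 0.0022, 0.020, 0.014 and 0.013, and the remaining members were above 0.05. The adipocyte score had r from -0.25 to 0.21 with the 8 members, none of them with an adjusted p under 0.05.

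**Figure D4:**
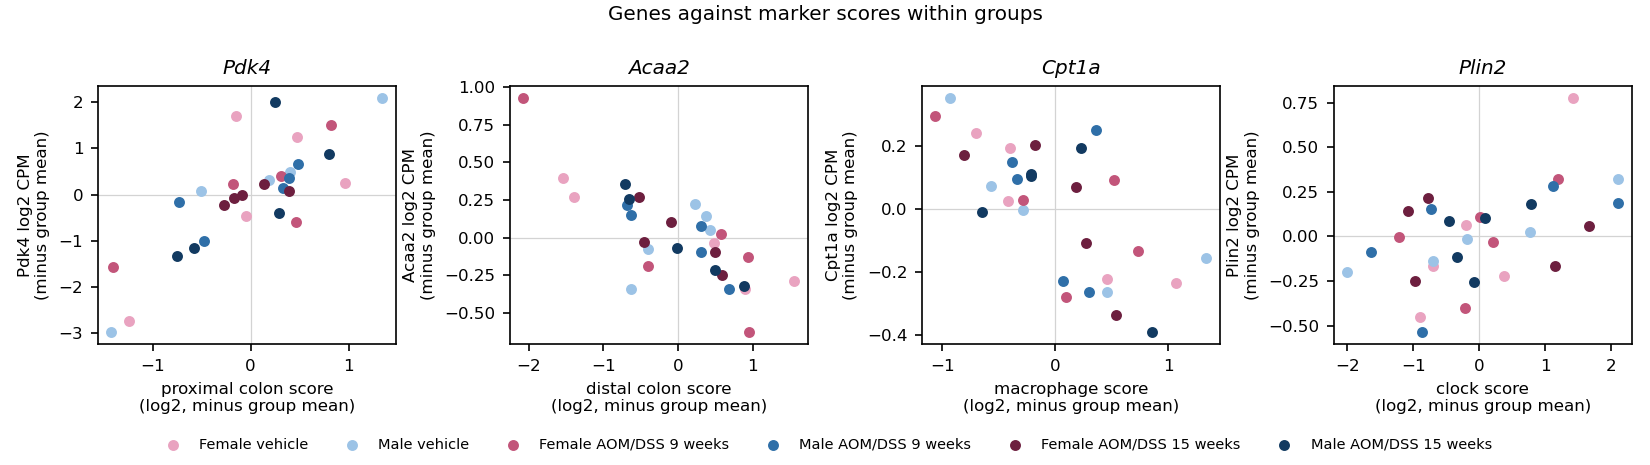
Log2 CPM of Pdk4, Acaa2, Cpt1a and Plin2 (y axes) against the proximal colon, distal colon, macrophage and clock scores (x axes), all minus the group mean, in 30 libraries coloured by group. The 4 panels have r of 0.80, -0.77, -0.70 and 0.53.

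For each member the 3 genes with the most similar centred log2 CPM over the 30 libraries were looked up among all genes tested, as a description with no test. For Ppara they were Dpyd (r = 0.94), Nfe2l2 (0.92) and Bche (0.92), and for Pparg Slc35d1 (0.92), Abcc5 (0.92) and Gcnt4 (0.91). For Pdk4 they were Hoxb3 (0.92), Hoxb6 (0.92) and Osr2 (0.90), and Hoxb6 is also on the proximal colon list. Acaa2 was closest to Ech1 (0.94), which is also on the peroxisomal list, then to Sod1 (0.92) and Mgst3 (0.91).

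Angptl4 was closest to Slc10a2 (0.90), the bile acid transporter of the ileum, then to Exoc3l4 (0.88) and Zdhhc19 (0.88). Cpt1a had Slc6a6 (0.86), Nf2 (0.85) and Lclat1 (0.85), and Acadm had Mettl7a1 (0.81), Abcb1a (0.79) and Itm2b (0.78). Plin2 had Gm12551 (0.84), Cyp2d10 (0.82) and Slc45a3 (0.82), and none of the 3 neighbours of any member was another member.

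The rest of the pathway was read from 10 gene lists with 99 genes that are not members, of which 90 were tested. At 9 weeks 4 of the 90 were called higher and 3 lower, with a median log2 fold change of -0.12 against -0.02 over all genes. At 15 weeks 4 were higher and 4 lower with a median of 0.08, and from 9 to 15 weeks 0 were called by edgeR in either direction with a median of 0.16. Of all genes 8.29%, 7.35% and 2.32% were called in the same comparisons.

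Among receptors and cofactors, Ppargc1a was called lower at both times. This coactivator of the PPARs, known for driving mitochondrial biogenesis, had 74.1 ± 13.7 CPM in vehicle mice, 41.4 ± 11.1 CPM at 9 weeks and 41.7 ± 11.6 CPM at 15 weeks (SD, n = 10). The log2 fold changes were -0.83 ± 0.16 (adjusted p = 0.00060) and -0.82 ± 0.16 (adjusted p = 0.0017). With limma on TPM the 9-week call was lost (-0.57, adjusted p = 0.24). No other gene of the list, which holds Ppard and the RXR genes and had 11 of 12 members tested, was called against vehicle apart from Ppara and Pparg.

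Dgat2, which makes triglyceride for lipid droplets, was called higher at both times. It had 49.0 ± 11.1 CPM in vehicle mice, 108 ± 14.6 CPM at 9 weeks and 98.1 ± 35.0 CPM at 15 weeks, with log2 fold changes of 1.14 ± 0.16 (adjusted p = 1.4e-05) and 1.004 ± 0.16 (adjusted p = 0.00026). The 15-week call was lost with limma on TPM (0.65, adjusted p = 0.17). Hilpda, an inhibitor of fat breakdown on droplets, rose at 9 weeks by 0.45 ± 0.14 (adjusted p = 0.025), a call lost without female vehicle replicate 1 (0.40, adjusted p = 0.048) or 9-week female replicate 4 (0.41, adjusted p = 0.055), or with the clock genes as a covariate (0.43, adjusted p = 0.053). Plin2 on the same droplets was not called at either time, as given above.

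Genes that bring fatty acids into the cell and activate them changed in both directions. At 9 weeks Slc27a2 rose by 1.32 ± 0.25 (adjusted p = 0.00040) and Acsl4 by 0.43 ± 0.13 (adjusted p = 0.022). The call on Acsl4 was lost without female vehicle replicate 1 (0.39) or 9-week female replicate 1 (0.35), with the distal colon markers (0.36, adjusted p = 0.056) or the clock genes (0.38, adjusted p = 0.060) as a covariate, and with limma on TPM (0.69, adjusted p = 0.10). Slc27a1 was lower at 9 weeks at -0.52 ± 0.15 (adjusted p = 0.016), but not with limma on TPM (-0.20, adjusted p = 0.52). At 15 weeks Cd36, the fatty acid receptor of fat, muscle, endothelium and macrophages, was lower at -2.30 ± 0.47 (adjusted p = 0.0023), with 4.39 ± 3.83 CPM in vehicle mice and 0.741 ± 0.332 CPM at 15 weeks. The log2 fold change was -2.11 without male vehicle replicate 1, where the call was lost on the FPKM minimum. At 15 weeks 2 of 8 endothelial and 7 of 8 smooth muscle markers were called lower too, and their part in the change of Cd36 was not tested. The vehicle side held male replicate 1, with the smooth muscle level of 8.74 given above. Acsl1, a long-chain acyl-CoA synthetase, was lower at -0.52 ± 0.15 (adjusted p = 0.019). That call was lost with the mesenchyme markers (-0.45, adjusted p = 0.074) or the clock genes (-0.39, adjusted p = 0.087) as a covariate and with limma on TPM (-0.83, adjusted p = 0.11).

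Around pyruvate dehydrogenase, the enzyme that Pdk4 switches off, the changes were spread over its regulators. Pdk2, the kinase with the broadest tissue range, was lower at 9 weeks at -0.55 ± 0.11 (adjusted p = 0.0012), but not with limma on TPM (-0.23, adjusted p = 0.53). Pdk3 was higher at 15 weeks at 0.43 ± 0.10 (adjusted p = 0.0054), a call lost without male vehicle replicate 1 (0.38) or with the clock genes as a covariate (0.34), both under the fold minimum, and with limma on TPM (0.14, adjusted p = 0.69). The phosphatase Pdp2, which acts against the kinases, was lower at -1.02 ± 0.27 (adjusted p = 0.012), a call lost with the mesenchyme markers as a covariate (-0.81, adjusted p = 0.068) and with limma on TPM (-1.33, adjusted p = 0.053). In mitochondrial beta-oxidation 1 of 15 genes was called in each comparison, Acaa2 at 9 weeks and between the times and Etfb, which carries electrons from the acyl-CoA dehydrogenases, at 15 weeks at 0.46 ± 0.16 (adjusted p = 0.041). The call on Etfb was lost in 9 of 20 fits without 1 library, namely female vehicle replicates 1, 4 and 5, male vehicle replicates 1 and 5, and 15-week female replicates 1 and 2 and male replicates 1 and 5. It was lost as well with no filter, in the compared libraries alone, with replicate numbers blocked, with the mesenchyme, distal colon or clock genes as a covariate, and with limma on TPM, where the log2 fold changes ran from 0.13 to 0.48 and the adjusted p-values from 0.052 to 0.70. At an unadjusted p under 0.05 in edgeR the mitochondrial list had 5, 7 and 10 genes at 9 weeks, at 15 weeks and between the times. In peroxisomal beta-oxidation 0 of 13 genes was called by edgeR in these comparisons, with 3, 1 and 6 at an unadjusted p under 0.05. Between the times 1 of the 15 mitochondrial and 0 of the 13 peroxisomal estimates were below 0. The medians were 0.23 and 0.25, against -0.02 over all genes. Of 15 tested textbook PPAR targets outside the set, Creb3l3 was called higher at 15 weeks at 0.94 ± 0.30 (adjusted p = 0.030), a call lost without male vehicle replicate 5 (0.85) or 15-week female replicate 1 (0.74) or male replicate 5 (0.87). It was lost under the same alternatives as that on Etfb except the one with no filter, with log2 fold changes from 0.63 to 0.95 and adjusted p-values from 0.051 to 0.29.

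**Figure D5:**
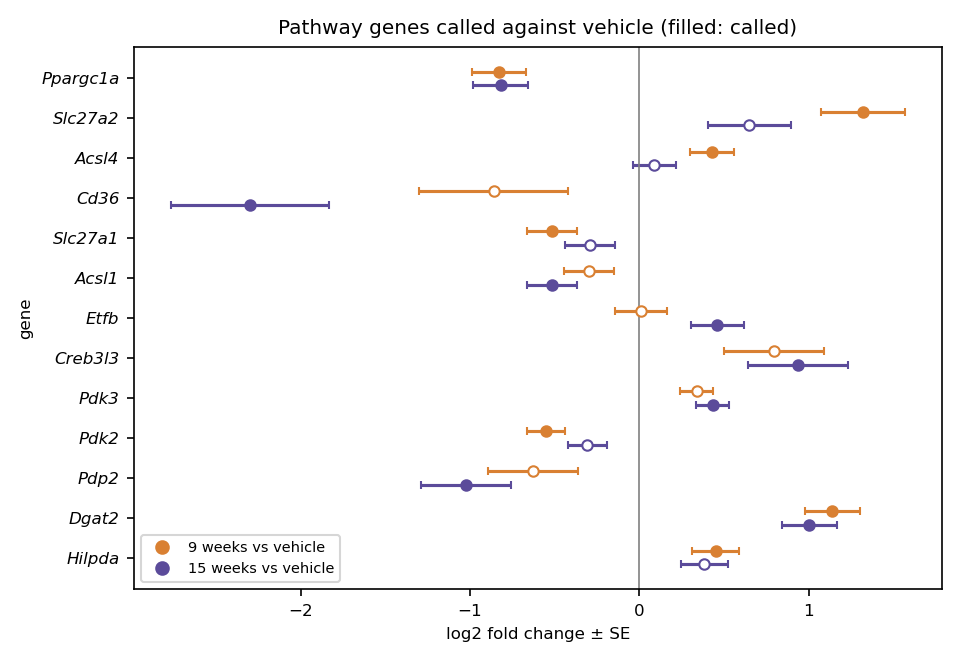
Log2 fold change ± SE (x axis) of the 13 non-member pathway genes called in at least 1 comparison with vehicle (y axis), at 9 and at 15 weeks, sexes averaged. Filled points were called. Dgat2 and Ppargc1a were called at both times, in opposite directions.

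In ketone body metabolism 0 of 5 genes was called by edgeR at 9 weeks, at 15 weeks or between the times, with 1, 1 and 2 at an unadjusted p under 0.05. Of 5 genes for the uptake and activation of butyrate, 0 was called in these comparisons by edgeR, with 1, 3 and 2 at an unadjusted p under 0.05. Of 6 tested genes of lipoprotein lipase and its partners, Angptl4 included, 0 was called by edgeR, with 2, 0 and 2 at an unadjusted p under 0.05.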

How the data were processed

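RNA of 30 colon scrapes, 1 per mouse, was sequenced from stranded poly(A) libraries. The authors deposited raw read counts per gene, made with STAR on GRCm38 and featureCounts. The authors also deposited TPM and FPKM values per gene from StringTie, and the submitters' processing notes name Trim Galore and bcl2fastq 2.20.0.422 as well. The annotation release is not given in the sources used here. Totals ran from 9265804 to 30806392 counts with a median of 24697064. In each TPM and FPKM file 11 to 20 gene lines were repeated. The 60 pairs of libraries within groups had Spearman correlations of 0.936 to 0.992, and none differed by less than sampling noise.

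The counts were fitted in edgeR 4.0.16 (R 4.3.3) by its quasi-likelihood test with TMM factors of 0.832 to 1.10, 1 coefficient per group and all 30 libraries, on the 16261 genes kept by filterByExpr, with Benjamini-Hochberg adjustment over them. A call needed an adjusted p under 0.05, a log2 fold change beyond 0.4 and a mean of 1 FPKM on 1 side. The common biological coefficient of variation was 0.319. Log2 CPM used a prior count of 2. Alternatives were DESeq2 1.42.0, limma 3.58.1 on log2(TPM + 0.1), RLE factors, no low-count filter, the compared libraries only, a replicate block, scores of mesenchyme, distal colon or clock genes as covariates, and leaving out each library. The scripts were tested on simulated data. Named pathway genes were those called in a comparison with the sexes averaged, at most 4 per list and direction. The 8 genes, the gene lists and the tests were chosen with earlier results of these data known. Groups came from the labels.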

Additional observations from a re-analysis of the deposited data

Results flagged for a closer look

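In the 48 sets of 5 libraries (8 genes in 6 groups), 2 held a library set apart from the other 4 by Dixon's test on log2 CPM, and chance alone is taken to single out about 1 in 20 groups. Ppara was high in male vehicle replicate 3, at a log2 CPM of 4.98 (31.4 CPM) against a group median of 3.28 (9.64 CPM), with a gap of 0.77 of the group's range. Angptl4 was low in 15-week female replicate 5, at a log2 CPM of -0.011 (0.911 CPM) against a group median of 1.61 (2.97 CPM), with a gap of 0.851 of the range.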

How the results depend on the processing

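At 9 weeks against vehicle, where 2 members were called with the sexes averaged, RLE factors, no filter and the compared libraries alone each left 1, the mesenchyme score left 1 (Pparg, higher), and the replicate block, limma on TPM and the clock score left 0. Leaving out 1 library gave 1 to 3. At 15 weeks the count of 1 became 0 with limma on TPM and stayed at 1 to 1 without any library. Between the times the count of 1 became 0 with the mesenchyme or the distal colon score and ran from 0 to 2 without 1 library, and the 1 call with limma on TPM was Plin2, lower (-0.81), in place of Acaa2. Where edgeR called 0, DESeq2 called 1 in females at 9 weeks, 2 in males at 15 weeks and 3 between the sexes in vehicle mice, and the distal score gave 2, 2 and 1 in males at 9 weeks, males at 15 weeks and between the sexes. Without 1 library those counts ran from 0 to 3 in females at 9 weeks, 0 to 1 in males at 9 weeks, 0 to 2 in males at 15 weeks and 0 to 4 between the sexes. The shares of all genes called under the alternatives are not given here. The count of 20 correlated pairs was 24 on TPM and 20 without the shallowest library.

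Signs reversed for 13 values with limma on TPM. At 9 weeks Cpt1a was then at 0.10, Pdk4 at 0.26, Plin2 at 0.16 and Acadm at 0.10, with Angptl4 at 0.044 in males. At 15 weeks Acaa2 was at -0.16, Pdk4 in females at 0.18 and Angptl4 in males at -0.36. Between the times Pparg was at -0.40, Cpt1a at -0.50, Angptl4 at -0.046, Acaa2 at -0.041 and Acadm at -0.51. With the mesenchyme score, Pdk4 was at 0.095 at 9 weeks, Plin2 at -0.12 in females at 9 weeks, Pdk4 at 0.050 in females and Angptl4 at -0.016 in males at 15 weeks, and Ppara at 0.18 between the sexes in vehicle mice. Between the times that score gave Ppara -0.056, Pparg -0.096, Cpt1a -0.072 and Plin2 0.091. With the distal score, Pdk4 was at 0.024 at 9 weeks, Acaa2 at -0.016 and Angptl4 in males at -0.041 at 15 weeks, and between the times Pparg was at -0.015, Angptl4 at -0.17 and Plin2 at 0.0057. The clock score gave Pdk4 -0.24 in males at 9 weeks. Without 1 library, Pdk4 at 9 weeks ran from -0.62 to 0.038, Angptl4 in males at 9 weeks from -0.71 to 0.11, Pparg in females at 9 weeks from -0.047 to 0.30, Pdk4 in females at 15 weeks from -0.56 to 0.22, Angptl4 in males at 15 weeks from -0.56 to 0.91 and Plin2 in females at 9 weeks from -0.0060 to 0.36. The fits with limma on TPM made no correction for the scale of TPM given above. Its part in these signs was not tested, nor was any other cause.

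Samples with the same replicate number did not deviate together. Over 75 such pairs r ran from -0.58 to 0.47 with a median of -0.026, 12 pairs were over 0.1, and 4 of 30 libraries were closest to their own number. The replicate block left 0 members called at 9 weeks, 1 at 15 weeks and 1 between the times, and Ppara at 9 weeks was then at -1.07. Low counts limit Angptl4 and Pdk4, which had as few as 5 and 7 counts in a library.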
